A study of Mus musculus with 12 samples.

Results

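Insulin-like growth factor (IGF) genes were followed through an aortic dissection model in mice with 10 genes, namely the ligands Igf1 and Igf2, the receptors Igf1r and Igf2r, and the binding proteins Igfbp2, Igfbp3, Igfbp4, Igfbp5, Igfbp6 and Igfbp7. The genes were chosen by name out of 34797 gene names on the array, with earlier results of these data known. Their probes were found by gene symbol. Igfbp1, a further binding protein on the array, is in a separate list below and did not pass the filter on dim probes. All 10 were among the 22761 genes that could be tested. Aortic RNA of male mice was measured on 12 one-colour microarrays, with 3 arrays from each of 4 groups. WT mice were sampled before challenge and after 3 days of BAPN + AngII (day 3), and so were mice labelled smSocs3-KO. BAPN (β-aminopropionitrile) blocks the crosslinking of collagen and elastin and was infused at 150 mg/kg/day together with AngII (angiotensin II, a pressor hormone) at 1000 ng/kg/min. All mice, WT included, carried the floxed Socs3 allele (Socs3fl/fl), and the WT mice were littermates without the SM22-Cre transgene. The SM22 promoter drives Cre in smooth muscle, and whether other aortic cells kept the allele was not measured here. The labels give the strain as 129S5/SvEvBrd, C57BL6 and SJL, and give no age and no statement on whether an array held 1 animal or a pool, so that p-values measure only the spread between arrays.

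The IGF ligands are secreted peptides that promote growth and survival of smooth muscle cells, fibroblasts and many other cells. Igf1r is the tyrosine kinase receptor that passes the signal on to the Akt and mTOR pathway, while Igf2r takes up and degrades Igf2 without a kinase of its own. Binding proteins hold the ligands in the circulation and in the tissue matrix and release them when proteases cleave the binding protein. In the aorta, Igf1 is made by smooth muscle cells, fibroblasts and macrophages.

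The share of spots well above background ranged from 55.4% to 61.2% per array, no spot was saturated, and arrays of 1 group correlated with r from 0.964 to 0.992 across genes. The smooth muscle markers (Myh11, Acta2, Cnn1, Tagln, Smtn and Myocd) were well above background on all 12 arrays, and none of the 4 liver markers passed the filter on dim probes. Socs3, the targeted gene, had log2 levels of 0.30, 0.32 and 0.75 in WT before challenge and of 0.24, 1.14 and 1.46 under the smSocs3-KO label, and at day 3 of 2.21, 2.30 and 0.64 and of 3.31, 2.28 and 4.13. Since Socs3 was not lower on the arrays labelled smSocs3-KO, these are called by their label throughout. Whether its probe lies in the floxed part was not established here. Slide 1 held all 6 WT arrays and smSocs3-KO replicate 1 before challenge, and slide 2 held the remaining 5, so that at day 3 genotype and slide cannot be told apart. A fit with slide as a block takes its slide effect only from smSocs3-KO arrays before challenge, replicate 1 against replicates 3 and 4. For the challenge responses and the interaction, it equals leaving out that replicate 1. The smSocs3-KO difference on slide 2 alone is the same estimate. In WT at day 3, replicate 4 stood apart from replicates 1 and 3. The mean log2 level of 5 proliferation markers (Mki67, Top2a, Ccnb1, Cdk1 and Birc5) was -0.04 on replicate 4, compared with 2.86 and 2.80 on the others, and that of 5 macrophage markers (Cd68, Csf1r, Emr1, Cd14 and Mrc1) was 2.04, compared with 3.59 and 3.01.

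The 10 genes were measured with 16 probes, of which 15 passed the filter. Igf1 had 5 probes, Igfbp2 and Igfbp3 had 2 each, and the other genes had 1. One Igfbp2 probe reads the end of the coding sequence and is shown because Igfbp2 was the binding protein with the largest difference. It spans chr1:72898677-72898736 on the plus strand of mm9, the build of the array design. In its first reading frame, 19 codons run without a stop into the stop codon, which is in capitals:
A_55_P2056729: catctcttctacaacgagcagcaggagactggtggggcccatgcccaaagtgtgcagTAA

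Promoters are shown for the 3 genes that passed the test in at least 1 comparison, Igf1, Igfbp4 and Igfbp5. They hold 250 bases before and 50 bases after the start of the gene, 5′ to 3′ on the strand of the gene, from RefSeq on GRCm38.p6. They lie at chr10:87860861-87861160 (plus strand) for Igf1, chr11:99040994-99041293 (plus strand) for Igfbp4 and chr1:72874816-72875115 (minus strand) for Igfbp5. Capitals mark a TATA box (TATAAA), a STAT factor site (TTCNNNGAA) or a GC box (GGGCGG) on either strand, and these motifs do not overlap in the 3 sequences:
Igf1: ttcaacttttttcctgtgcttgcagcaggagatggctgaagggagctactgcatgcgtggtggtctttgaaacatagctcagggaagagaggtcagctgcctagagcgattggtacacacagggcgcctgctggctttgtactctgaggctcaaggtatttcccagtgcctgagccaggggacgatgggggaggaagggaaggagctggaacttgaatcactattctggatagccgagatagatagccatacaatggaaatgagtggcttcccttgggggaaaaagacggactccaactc
Igfbp4: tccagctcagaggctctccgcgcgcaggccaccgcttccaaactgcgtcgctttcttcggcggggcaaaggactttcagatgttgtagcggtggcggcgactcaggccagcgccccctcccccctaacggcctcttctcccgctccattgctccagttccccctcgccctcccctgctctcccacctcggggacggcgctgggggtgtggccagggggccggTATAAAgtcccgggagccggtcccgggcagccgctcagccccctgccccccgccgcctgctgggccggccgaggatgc
Igfbp5: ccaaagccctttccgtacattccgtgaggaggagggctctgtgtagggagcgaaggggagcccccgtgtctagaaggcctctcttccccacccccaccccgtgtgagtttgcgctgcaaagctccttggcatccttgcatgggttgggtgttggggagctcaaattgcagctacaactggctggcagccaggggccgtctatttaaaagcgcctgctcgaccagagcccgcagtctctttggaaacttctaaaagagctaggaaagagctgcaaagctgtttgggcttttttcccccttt
Of the 3, the Igfbp4 promoter alone held a motif, a TATA box that starts 28 bases before the gene, as 13.6% of all 32851 RefSeq promoters hold TATAAA. All 10 genes had a promoter in the RefSeq table, 14 promoters in all. The STAT site was in 0 of the 14, compared with 8.3% of all promoters, the TATA box was in 2 (Igfbp4 and Igfbp6), and the GC box was in 6, compared with 35.7% of all promoters. These are matches of letters in a short window and say nothing about binding.

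Log2 levels are given after subtraction of each array's 75th percentile, and differences are day 3 minus before challenge, or smSocs3-KO label minus WT, on the same log2 scale. A gene was called at a limma adjusted p under 0.05 over all genes tested. Levels of different genes were not compared, since each probe has its own brightness.

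**Figure D1:**
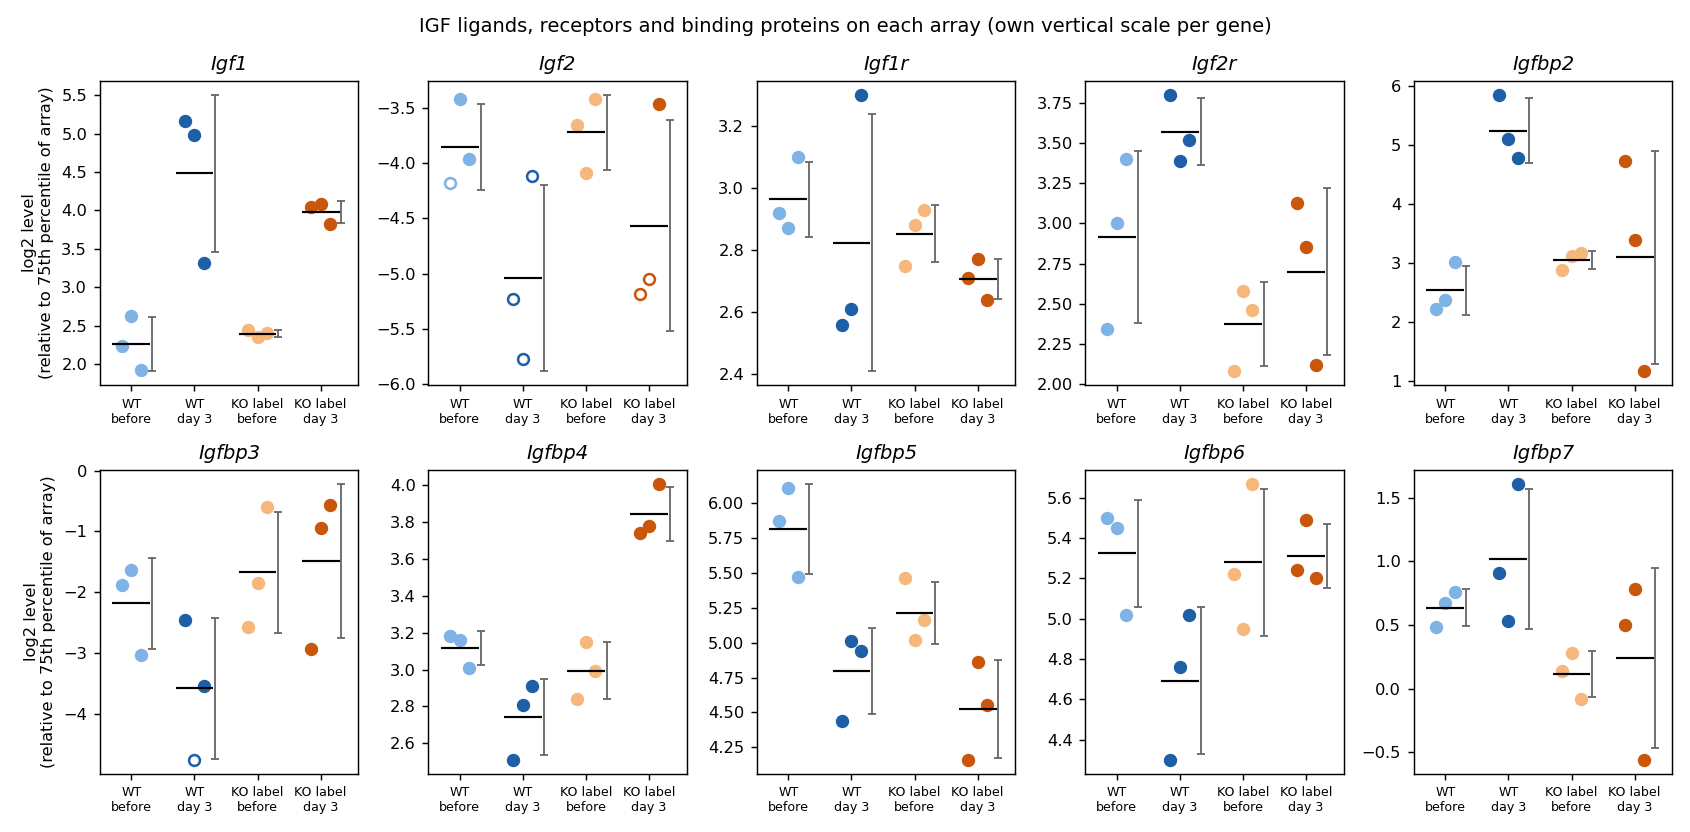
Log2 level of each of the 10 genes on each of the 12 arrays (vertical axis, relative to the 75th percentile of the array, with its own scale per gene) in the 4 groups (horizontal axis). Points are arrays, open points are arrays on which the probe was not well above background, horizontal lines are group means and grey bars are ± 1 SD (n = 3). Igf1 was higher on all day 3 arrays than on the arrays before challenge, and Igfbp4 was highest on the 3 day 3 arrays labelled smSocs3-KO.

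Igf1, the main circulating and tissue growth factor of the family, rose with challenge in WT. Its log2 level was 2.24, 2.63 and 1.92 in WT before challenge and 5.16, 4.98 and 3.31 at day 3. Under the smSocs3-KO label it was 2.44, 2.35 and 2.40 before challenge and 4.04, 4.08 and 3.82 at day 3. The day 3 arrays lay above the arrays before challenge in both genotypes without overlap, and the lowest of them was WT replicate 4. In WT the difference was 2.22 ± 0.40 (SE, n = 3), a 4.65-fold rise with a 95% interval from 2.52-fold to 8.58-fold (limma adjusted p = 0.0324). Under the smSocs3-KO label it was 1.58 ± 0.40 (3.00-fold) and was not called (limma adjusted p = 0.0626), and on slide 2 alone, with 2 arrays before challenge and 3 at day 3, it was 1.61. The mean of both responses was 1.90 ± 0.28, a 3.74-fold rise (limma adjusted p = 0.0049).

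The Igf1 response was not shown to differ between the genotypes. The interaction was -0.63 with a 95% interval from -1.88 to 0.61 (limma adjusted p = 0.980), and the smSocs3-KO label differed from WT by 0.13 before challenge and by -0.50 at day 3 (limma adjusted p = 1 and 0.582). The last value rested on WT replicate 4, without which it was -1.09 (limma adjusted p = 0.0291) and the Igf1 response in WT was 2.80 (limma adjusted p = 0.0002). These gains were not particular to Igf1. Without that array, 615 of all genes were called between genotypes at day 3, compared with 253 on all arrays. In the WT response it was 3628, compared with 1065. The WT call was lost without WT replicate 1, 2 or 3 before challenge (limma adjusted p = 0.138, 0.130 and 0.0684), without WT replicate 1 or 3 at day 3 (0.154 and 0.0993) and without smSocs3-KO replicate 4 before challenge (0.054), with a difference between 1.88 and 2.40. This loss was not particular to Igf1. Without each of these arrays, between 0 and 3 of all 22761 genes were called in the WT response, compared with 1065 on all arrays. The smSocs3-KO response was called without WT replicate 1 or 4 at day 3 (limma adjusted p = 0.0495 and 0.0033). In these fits 660 and 1918 of all genes were called in that response, compared with 557 on all arrays.

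Macrophage and proliferation markers were measured beside Igf1. The mean log2 level of the 5 macrophage markers lay between 1.77 and 2.31 on the 6 arrays before challenge, between 2.04 and 3.59 in WT at day 3 and between 3.37 and 3.61 under the smSocs3-KO label at day 3. Of the 5 macrophage markers, 0 were called by limma in the WT response (5 at an unadjusted p under 0.05, compared with 26.6% of all genes), 3 (Cd14, Cd68 and Mrc1) were called higher in the smSocs3-KO response and 5 in the mean of both. Of the 5 proliferation markers, 5, 1 (Cdk1) and 5 were called higher in these comparisons, where 3.59%, 1.71% and 13.6% of all genes were. None of these markers was at background on any day 3 array, and their part in the Igf1 response was not tested. Before challenge, 3, 4 and 4 of the 5 proliferation markers were well above background on WT replicates 1, 2 and 3. On smSocs3-KO replicates 1, 3 and 4 it was 4, 4 and 5. A proliferation marker can thus have passed the filter only through day 3 groups, where it is high, and these counts are given as a description. In bulk tissue, more cells of a type and more RNA per cell cannot be told apart.

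All 5 Igf1 probes were higher at day 3, by different amounts. The probe that stands for the gene (A_55_P2031631, chr10:87393581-87393640 on mm9, plus strand) and a probe that overlaps it (A_55_P2085984, chr10:87393561-87393620) rose by 2.22 and 2.30 in WT, and since they share target sequence they are not independent. The other probes assigned to transcript variant 1 were A_55_P2085974, with 1.76 ± 0.33, and A_55_P2031636, with 1.41 ± 0.38. The probe assigned to transcript variant 2 (A_55_P2085979, chr10:87378456-87378515) differed least, by 0.70 ± 0.22 in WT and 0.30 ± 0.22 under the smSocs3-KO label. Its log2 levels were 0.61, 0.84 and 0.43 in WT before challenge and 1.46, 1.49 and 1.04 at day 3, again without overlap. With each probe tested on its own row, 3 of the 5 were called in WT, with limma adjusted p of 0.0361, 0.0357 and 0.0363, and the variant 2 probe was not (0.0819). In the mean of both responses all 5 were called, the variant 2 probe with 0.50 ± 0.15 (limma adjusted p = 0.0406). With 1 probe per gene, 4.68% of all genes were called in the WT response and 22.7% in the mean of both. Whether the probes differed from each other in response was not tested.

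**Figure D2:**
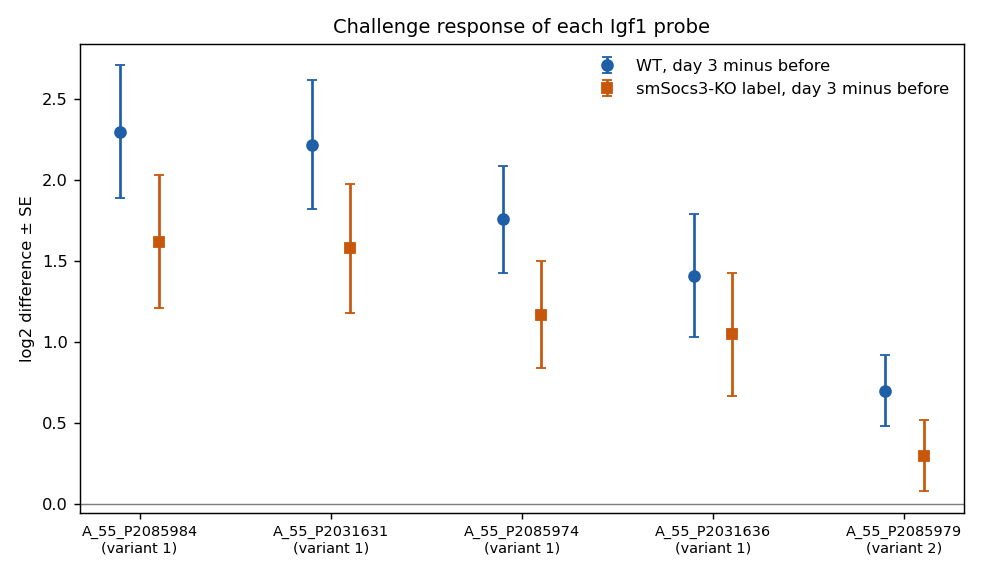
Log2 difference between day 3 and before challenge (vertical axis, ± SE, n = 3 arrays per group) for each of the 5 Igf1 probes (horizontal axis, with the transcript variant given by the array files), in WT (circles) and under the smSocs3-KO label (squares). All 10 differences are above 0, from 2.30 down to 0.30, and the variant 2 probe has the smallest in both.

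Igf2, the fetal growth factor whose RNA is low in adult tissue, was near the detection limit. Its probe was well above background on 6 of the 12 arrays, on 2 in WT before challenge, on all 3 labelled smSocs3-KO before challenge and on 1 of them at day 3, but on no WT array at day 3. It was kept only through the group labelled smSocs3-KO before challenge. The log2 level was -4.18, -3.42 and -3.96 in WT before challenge and -5.23, -5.77 and -4.12 at day 3. Since no WT array at day 3 was well above background, its level there is known only as an upper limit and no fold is given. The measured means were -3.85 ± 0.39 and -5.04 ± 0.84 (SD, n = 3), and the difference of -1.19 ± 0.50 was not called (limma adjusted p = 0.160). It was -0.26 with normexp background correction and -0.13 with normexp and quantile normalization (limma adjusted p = 0.482 and 0.553). Without WT replicate 4 at day 3, it was -1.65 (limma adjusted p = 0.0444), but no remaining WT array at day 3 was well above background. In that fit 3628 of all 22761 genes were called in the WT response, compared with 1065 on all arrays. The value of -1.65 is therefore given as a description. Under the smSocs3-KO label the levels were -3.66, -4.09 and -3.42 before challenge and -5.18, -5.05 and -3.47 at day 3, a difference of -0.84. The groups overlapped in both genotypes. As the gene passed the filter only through the group labelled smSocs3-KO before challenge, this difference and the mean of both responses, -1.01, are given as a description without a test, and the mean was -0.35 with normexp background correction.

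Neither receptor was called in any comparison. Igf1r, the signalling receptor, had log2 levels of 2.92, 2.87 and 3.10 in WT before challenge, 2.56, 2.61 and 3.30 at day 3, and 2.75, 2.88 and 2.93 and 2.71, 2.77 and 2.64 under the smSocs3-KO label. Its differences were -0.14 in WT (95% interval from -0.57 to 0.29) and -0.15 under the smSocs3-KO label (from -0.58 to 0.28), which as folds run from 0.673 to 1.22 and from 0.670 to 1.22. Igf2r, the clearance receptor, was measured with 10 spots of 1 probe per array. Its log2 levels were 2.34, 3.00 and 3.40 in WT before challenge, 3.80, 3.39 and 3.52 in WT at day 3, 2.08, 2.58 and 2.46 under the smSocs3-KO label before challenge and 3.13, 2.85 and 2.12 at day 3. At day 3 all arrays labelled smSocs3-KO were lower than all WT arrays, by -0.87 ± 0.31 (limma adjusted p = 0.215), and by -1.31 with slide as a block. The slide effect in the block fit rests on smSocs3-KO replicate 1 before challenge, so -1.31 does not separate genotype from slide. The corresponding difference before challenge was -0.54 ± 0.31 (limma adjusted p = 1), with overlap between the groups.

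Igfbp2, a binding protein with a preference for Igf2, had the largest challenge difference of the 10 genes in WT. Its log2 level was 2.22, 2.37 and 3.01 before challenge and 5.85, 5.10 and 4.78 at day 3 in WT. Under the smSocs3-KO label it was 2.87, 3.11 and 3.16 before challenge and 4.73, 3.38 and 1.16 at day 3. The WT groups were far apart, whereas the day 3 arrays labelled smSocs3-KO lay on both sides of those before challenge, with replicate 2 above and replicate 5 below. The difference in WT was 2.71 ± 0.69 (6.55-fold, 95% interval from 2.28-fold to 18.8-fold), with an adjusted p just above the threshold (limma adjusted p = 0.0508). Under the smSocs3-KO label it was 0.05 ± 0.69 (limma adjusted p = 0.973), and on slide 2 alone it was -0.04. At day 3 the arrays labelled smSocs3-KO were lower than WT by -2.15 ± 0.69, without overlap and with limma adjusted p = 0.172. The interaction was -2.67 ± 0.98 (limma adjusted p = 0.897).

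The Igfbp2 values depended on single arrays, and the WT call on the setting as well. The response under the smSocs3-KO label was -0.77 without replicate 2 and 1.01 without replicate 5 at day 3. The genotype difference at day 3 was -2.97 without replicate 2 (limma adjusted p = 0.0401) and -1.19 without replicate 5. In WT, the difference was called without WT replicate 4 at day 3 (2.94, limma adjusted p = 0.0324), and also without smSocs3-KO replicate 1 before challenge, or replicate 2 or 5 at day 3, which leave the difference itself at 2.71. Over all genes, 3628, 2368, 670 and 891 were called in the WT response in these fits, in that order, compared with 1065 on all arrays. With all 12 arrays the WT difference of Igfbp2 was called with normexp background correction (2.68, limma adjusted p = 0.0437), with a filter that kept probes well above background on all 12 arrays (0.0419), with trend and robust moderation (0.0320) and with slide as a block (0.0450). The last is the same test as the fit without smSocs3-KO replicate 1 before challenge, not a separate result. Over all alternatives the adjusted p ran from 0.0320 to 0.209. The mean of both responses was 1.38 (limma adjusted p = 0.0634) and was called without smSocs3-KO replicate 5 at day 3 (1.86, limma adjusted p = 0.0112). With all arrays, it was called with normexp background correction (limma adjusted p = 0.0424), trend and robust moderation (0.0492) or replicate number as a block (1.83, limma adjusted p = 0.0386). The coding-end probe printed above gave the same picture, with a difference of 2.55 ± 0.66 in WT (limma adjusted p = 0.0556) and -0.04 ± 0.66 under the smSocs3-KO label.

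Igfbp4, a binding protein that mostly holds Igf1 and Igf2 back from their receptor, rose with challenge under the smSocs3-KO label. Its log2 level was 2.84, 3.15 and 2.99 before challenge and 3.74, 3.78 and 4.01 at day 3 under that label, and 3.18, 3.16 and 3.01 and then 2.51, 2.81 and 2.91 in WT. Day 3 arrays were thus all higher than the arrays before challenge under the smSocs3-KO label and all lower in WT. The difference under the smSocs3-KO label was 0.85 ± 0.16 (1.80-fold, limma adjusted p = 0.0315), and on slide 2 alone it was 0.78. In WT it was -0.38 ± 0.16 (limma adjusted p = 0.166). At day 3 the smSocs3-KO label was higher than WT by 1.10 ± 0.16 (2.15-fold, 95% interval from 1.68-fold to 2.75-fold, limma adjusted p = 0.0160), after a difference of -0.13 ± 0.16 before challenge. The interaction was 1.23 ± 0.23, for which the adjusted p missed the threshold (limma adjusted p = 0.324).

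With slide as a block, the Igfbp4 difference at day 3 was 0.88 (limma adjusted p = 0.239) and the smSocs3-KO response was 0.78 (limma adjusted p = 0.0938). The slide effect rests on smSocs3-KO replicate 1 before challenge, so 0.88 does not separate genotype from slide. With that block, 0 of all genes were called between genotypes at day 3 and 52 in the smSocs3-KO response. The genotype call at day 3 was lost without WT replicate 3 (1.14, limma adjusted p = 0.0515) or smSocs3-KO replicate 5 at day 3 (1.02, limma adjusted p = 0.0669). In these fits 50 and 45 of all genes were called between genotypes at day 3, compared with 253 on all arrays. The smSocs3-KO response was lost without any 1 of the 3 WT arrays before challenge or of the 6 arrays labelled smSocs3-KO, with a difference between 0.77 and 0.93 and limma adjusted p between 0.0511 and 0.108. Between 42 and 373 of all genes were called in that response in those fits, compared with 557 on all arrays. The mean log2 level of 5 fibroblast markers (Pdgfra, Dcn, Lum, Dpt and Col1a1) was between 5.12 and 5.66 at day 3 under the smSocs3-KO label and between 4.89 and 4.98 before challenge. In WT, where Igfbp4 was lower on all day 3 arrays, it was between 4.71 and 4.98 before challenge and between 4.72 and 5.02 at day 3. Of the 5 markers, 0 were called by limma in the smSocs3-KO response (1 at an unadjusted p under 0.05, Dpt, compared with 23.8% of all genes). In the WT response 0 were called (2 at an unadjusted p under 0.05, compared with 26.6%). Between genotypes at day 3, 1, again Dpt, was called higher, where 0.958% of all genes were. In the mean of both responses 1 was called higher, where 13.6% were. The part of these markers in the Igfbp4 result was not tested.

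Igfbp5, a binding protein that attaches to the extracellular matrix, fell with challenge in WT. Its log2 level was 5.87, 6.11 and 5.47 before challenge and 4.44, 5.01 and 4.94 at day 3 in WT, and 5.46, 5.02 and 5.16 and then 4.16, 4.86 and 4.55 under the smSocs3-KO label. Day 3 arrays were lower than the arrays before challenge in both genotypes without overlap. The difference was -1.02 ± 0.24 in WT (0.495-fold, limma adjusted p = 0.0442) and -0.69 ± 0.24 under the smSocs3-KO label (limma adjusted p = 0.133), where it was -0.57 on slide 2 alone. The mean of both responses was -0.85 ± 0.17 (0.553-fold, limma adjusted p = 0.0102), and the interaction was 0.32 with a 95% interval from -0.44 to 1.09. Before challenge, the smSocs3-KO label was lower than WT by -0.60 ± 0.24 without overlap (limma adjusted p = 1), and on slide 1, which holds 1 array with the smSocs3-KO label, the difference was -0.35. The WT call was lost when any of 9 arrays was left out (WT replicates 1, 2 and 3 before challenge, WT replicates 1 and 3 at day 3, smSocs3-KO replicates 3 and 4 before challenge and smSocs3-KO replicates 3 and 5 at day 3), with a difference between -1.19 and -0.84 and limma adjusted p between 0.0505 and 0.193. Over all genes, 1032 were called without smSocs3-KO replicate 3 before challenge, and 547 and 891 without smSocs3-KO replicates 3 and 5 at day 3. Without each of the other arrays named, between 0 and 3 were called. The mean log2 level of the 6 smooth muscle markers was between 7.61 and 8.15 before challenge, between 7.17 and 7.81 in WT at day 3 and between 6.96 and 7.32 under the smSocs3-KO label at day 3. Of these 6 markers, limma called 0 in either response, where 4.68% (WT) and 2.45% (smSocs3-KO label) of all genes were called. At an unadjusted p under 0.05 there were 2 in WT, Myh11 and Myocd, compared with 26.6% of all genes. Under the smSocs3-KO label there were 5, all but Tagln, compared with 23.8%. In the mean of both, 2 were called lower, Myh11 and Myocd, as were 2089 of all 22761 genes. The part of these markers in the Igfbp5 decrease was not tested.

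The other binding proteins were not called in any comparison. Igfbp3, the main carrier of Igf1 in blood, was dim, and its probe was not well above background in WT replicate 3 at day 3. Its log2 level was -1.88, -1.63 and -3.04 in WT before challenge and -2.45, -4.76 and -3.54 at day 3, and under the smSocs3-KO label -2.57, -1.84 and -0.60 before challenge and -2.93, -0.94 and -0.57 at day 3. All 4 groups overlapped, and the difference between genotypes at day 3 was 2.10 ± 0.76 (limma adjusted p = 0.216). With slide as a block that difference was 0.75, and 0.30 when smSocs3-KO replicate 5 at day 3 was also left out, and with normexp background correction it was 0.95 (limma adjusted p = 0.791, 0.919 and 0.275). The slide effect in the block fits rests on smSocs3-KO replicate 1 before challenge, so they do not separate genotype from slide. A further Igfbp3 probe was above background on 0 of 12 arrays.

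Igfbp6, which binds Igf2 in preference to Igf1, had log2 levels of 5.50, 5.45 and 5.02 in WT before challenge and 4.30, 4.76 and 5.02 at day 3. On arrays labelled smSocs3-KO the levels were 5.22, 4.95 and 5.67 before challenge and 5.24, 5.49 and 5.20 at day 3. The difference with challenge was -0.63 ± 0.24 in WT (limma adjusted p = 0.131) and 0.03 ± 0.24 under the smSocs3-KO label, and at day 3 the smSocs3-KO label was higher by 0.62 ± 0.24 without overlap (limma adjusted p = 0.246). Igfbp7, which binds the ligands weakly, had log2 levels of 0.48, 0.67 and 0.76 in WT before challenge and 0.14, 0.28 and -0.08 under the smSocs3-KO label. These groups did not overlap, and the difference was -0.52 ± 0.35 (limma adjusted p = 1). At day 3 the levels were 0.91, 0.53 and 1.61 in WT and 0.50, 0.78 and -0.56 under the smSocs3-KO label, with a difference of -0.77 ± 0.35 (limma adjusted p = 0.304), which was -0.37 without smSocs3-KO replicate 5 at day 3 and -0.48 without WT replicate 4.

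**Figure D3:**
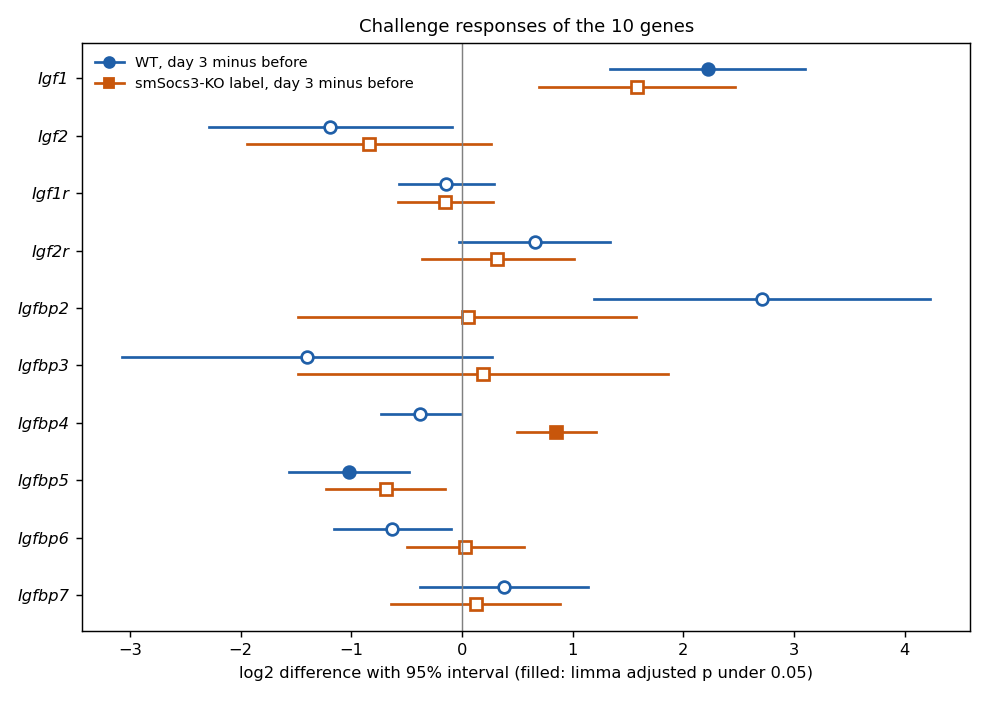
Log2 difference between day 3 and before challenge (horizontal axis) with its 95% interval for each of the 10 genes (vertical axis), in WT (circles) and under the smSocs3-KO label (squares). Filled symbols have a limma adjusted p under 0.05, namely Igf1 (2.22) and Igfbp5 (-1.02) in WT and Igfbp4 (0.85) under the smSocs3-KO label.

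Across the 10 genes, 2 were called in the WT challenge response, Igf1 higher and Igfbp5 lower, where 4.68% of all genes tested were called. In the smSocs3-KO response 1 was called, Igfbp4, against 2.45% of all genes, and in the mean of both responses 2 were called, Igf1 and Igfbp5, against 22.7%. Between genotypes, 0 were called before challenge (0.0264% of all genes) and 1 at day 3, Igfbp4 (1.11%). The limma interaction gave 0 calls among the 10 genes and 0% among all genes. At an unadjusted p under 0.05 it held 2 of the 10 genes, Igfbp2 and Igfbp4, compared with 5.33% of all genes.

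The groups did not overlap for 4 of the 10 genes in the WT response (Igf1, Igfbp2, Igfbp4 and Igfbp5), compared with 35.3% of all genes, and for 3 in the smSocs3-KO response (Igf1, Igfbp4 and Igfbp5), compared with 28.1%. Between genotypes they did not overlap for 2 genes before challenge (Igfbp5 and Igfbp7), compared with 11.1%, and for 4 at day 3 (Igf2r, Igfbp2, Igfbp4 and Igfbp6), compared with 20.5%. The study's own threshold of an unadjusted p under 0.01 and a fold above 4 or below 0.25 was passed by Igf1 and Igfbp2 in the WT response, as by 1.28% of all genes, and by Igfbp2 between genotypes at day 3, as by 1.11%. None of the 10 genes passed it in the smSocs3-KO response or between genotypes before challenge, where 1.63% and 0.242% of all genes did. The median log2 difference of the 10 genes was -0.26 in the WT response, compared with -0.02 over all genes, and 0.09 in the smSocs3-KO response, compared with -0.063. Between genotypes it was -0.07 before challenge, compared with 0.004, and -0.20 at day 3, compared with -0.081. The genotype comparisons share arrays with the challenge comparisons.

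**Figure D4:**
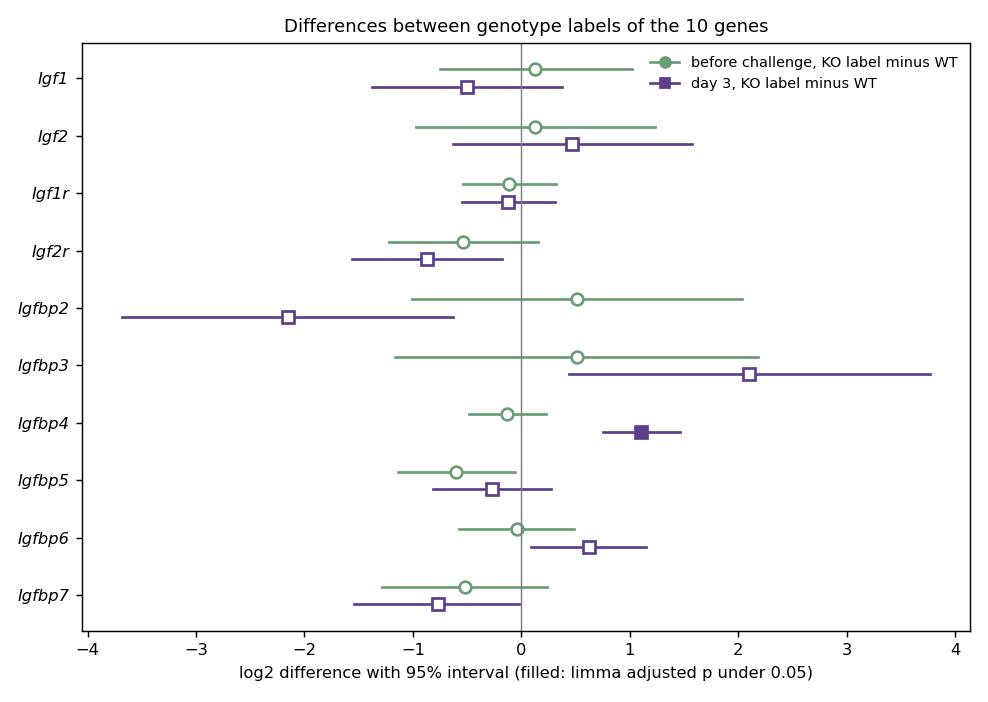
Log2 difference between the smSocs3-KO label and WT (horizontal axis) with its 95% interval for each of the 10 genes (vertical axis), before challenge (circles) and at day 3 (squares). The filled symbol is Igfbp4 at day 3 (1.10), and Igfbp2 at day 3 lies lowest, at -2.15.

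Other genes of the pathway were described with a list of 24, of which 18 could be tested (Igfals, Igfbp1, Stc1, Insrr, Igf2bp1 and Igf2bp3 did not pass the filter on dim probes). They comprise binding partners and proteases of the binding proteins, insulin receptors and adaptors, regulators of Igf2 RNA and the growth hormone axis. In the WT response 0 of the 18 were called by limma, where 4.68% of all genes were called, with a median difference of -0.12. At an unadjusted p under 0.05 there were 2 of the 18, Pappa2 and Shc1, a smaller share than the 26.6% of all genes. In the smSocs3-KO response 1 was called higher and 0 lower (2.45% of all genes were called), with a median of -0.04. At an unadjusted p under 0.05 there were 5 (Pappa2, Htra1, Irs1, Grb14 and Stat5a), compared with 23.8% of all genes, and in the mean of both responses 5 (Pappa2, Insr, Irs1, Grb14 and Shc1), compared with 39.1%. The gene called under the smSocs3-KO label was Pappa2, a protease that cleaves Igfbp3 and Igfbp5. Its log2 level was -2.54, -2.52 and -2.50 in WT before challenge and -0.82, -1.04 and -1.81 at day 3, and -2.01, -2.26 and -1.14 and then -0.29, 0.28 and -0.45 under the smSocs3-KO label. Day 3 arrays were higher than those before challenge in both genotypes without overlap. The difference was 1.65 ± 0.33 under the smSocs3-KO label (limma adjusted p = 0.0368), 1.29 ± 0.33 in WT (limma adjusted p = 0.0504) and 1.47 ± 0.23 in the mean of both (limma adjusted p = 0.0055). The smSocs3-KO call was lost without any of the 3 WT arrays before challenge, without smSocs3-KO replicate 1 or 3 before challenge or without any smSocs3-KO array at day 3, with a difference between 1.42 and 1.80 and limma adjusted p between 0.0623 and 0.117. In the mean of both responses, Pappa2 was the 1 gene of the 18 that was called, against 22.7% of all genes, with a median of -0.10 over the list, and its call held without each of the 12 arrays in turn. Between genotypes and in the interaction 0 of the 18 were called by limma. At an unadjusted p under 0.05 there was 1 before challenge (Igfbpl1), compared with 4.4% of all genes, with 3 at day 3 (Pappa2, Htra1 and Stat5a), compared with 16.2%, and 2 in the interaction (Htra1 and Stat5a), compared with 5.33%. Igfbpl1 was dim, with log2 levels before challenge of -2.95, -3.39 and -3.05 in WT and -3.45, -4.73 and -5.01 under the smSocs3-KO label. It may have passed the filter only through WT before challenge, where it is high, so it is named as a description. Genes named for an unadjusted p alone were chosen after their values were seen.

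The CCN proteins are matrix-associated signalling proteins with a domain like that of the IGF binding proteins. Of 6 such genes, 5 could be tested, as Wisp3 did not pass the filter. In the WT response 2 were called higher, Wisp1 and Wisp2, where 3.59% of all genes were called higher, with a median over the 5 of 0.50. In the smSocs3-KO response 1 was called higher, Wisp2, against 1.71% of all genes, with a median of 0.87. In the mean of both responses 3 were called higher, Wisp1, Wisp2 and Ctgf, against 13.6% of all genes, with a median of 0.61. None was called between genotypes or in the interaction, where limma also held 0 of the 5 at an unadjusted p under 0.05.

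Wisp1, a target of Wnt signalling, had log2 levels of 0.71, 0.93 and 0.85 in WT before challenge and 3.97, 3.89 and 1.84 at day 3. On arrays labelled smSocs3-KO the levels were 0.93, 1.01 and 0.58 and then 2.67, 2.02 and 2.58. As for Igf1, WT replicate 4 was the lowest day 3 array. The difference was 2.40 ± 0.47 in WT (5.29-fold, limma adjusted p = 0.0329), which also passed the study's threshold, and 1.59 ± 0.47 under the smSocs3-KO label (limma adjusted p = 0.0887). The WT call was lost without the same 6 arrays as the Igf1 call, with limma adjusted p between 0.054 and 0.154. Without each of these arrays, between 0 and 3 of all genes were called in the WT response, so the shared loss is not particular to these genes.

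Wisp2, which lacks the C-terminal domain of the other CCN proteins, had log2 levels of 4.20, 4.31 and 4.70 in WT before challenge and 5.63, 5.71 and 5.62 at day 3, and of 4.16, 4.63 and 4.48 and then 6.16, 6.05 and 5.88 under the smSocs3-KO label. Its day 3 levels spread less than those of Wisp1. The difference was 1.25 ± 0.18 in WT (limma adjusted p = 0.0279) and 1.61 ± 0.18 under the smSocs3-KO label (limma adjusted p = 0.0062). The call under the smSocs3-KO label held without each of the 12 arrays in turn, while that in WT was lost without the same 6 arrays as the Igf1 call, with limma adjusted p between 0.0529 and 0.145. As given for Wisp1, between 0 and 3 of all genes were called in those WT fits. Ctgf, a matrix-associated factor that promotes collagen deposition, was called in the mean of both responses with 0.44 ± 0.13 (limma adjusted p = 0.0356), and this call was lost without any of 8 arrays (WT replicates 1, 2 and 3 before challenge, WT replicates 1 and 3 at day 3, smSocs3-KO replicates 3 and 4 before challenge and smSocs3-KO replicate 5 at day 3), with limma adjusted p between 0.0574 and 0.0879.

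Genes with a pattern like that of Igf1 were sought among 15701 other tested genes whose name is in the RefSeq table. Each gene was set against its own mean in WT before challenge, and likeness was the root mean square difference from Igf1 over the 12 arrays on the log2 scale. The closest was Wisp1, at 0.29, followed by D5Ertd605e (0.291), Pask (0.313), Mcm2 (0.333) and Tnfaip8l1 (0.336). Relative to WT before challenge, the mean of Mcm2, a subunit of the replicative helicase, was 1.87 in WT at day 3 and 1.51 under the smSocs3-KO label at day 3. Those of Wisp1 were 2.40 and 1.60. The 12 points of each gene share the 4 groups and the array WT replicate 4, and this is a description without a test.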

How the data were processed

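Per the labels, total aortic RNA was labelled with Cy3, and the authors hybridised it to one-colour Agilent arrays of 62976 spots. Feature Extraction (version 10.7.1.1 per the file headers, 9.5.1.1 in the submitters' processing notes) gave deposited intensity values per spot, background-subtracted and detrended within the array; the mean and background intensity, and a value table of linear intensity that the authors had quantile normalized, served for alternatives. Outlier and control spots were left out, log2 intensity was averaged over the spots of a probe, and the 75th percentile of each array was subtracted. Probes were kept (32283) if 1 or more groups had them well above background on each of its 3 arrays, and each gene was represented by its brightest probe. All 4 groups were fitted in limma 3.58.1 (R 4.3.3, with lmFit, eBayes and Benjamini-Hochberg over 22761 genes). The fit was checked on simulated data that held no slide effect and no outlying array. Of 200 genes changed 4-fold there, 155 were recovered in the WT response and 113 in the interaction. The precision is limited by 3 arrays per group. The study's threshold was an unadjusted p under 0.01 with a fold above 4 or below 0.25.

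The named genes were the 10 members, the genes of the pathway and CCN lists that passed either threshold in at least 1 of 6 comparisons, and the 5 genes closest to Igf1. The members and lists were chosen with earlier results of these data known. Alternatives covered background correction, normalization, the filter, the probe, moderation, arrays in the fit, slide, replicate number and each array left out; the slide block without smSocs3-KO replicate 5 at day 3 and the fit of each probe on its own row were chosen after seeing the data. Markers of endothelial cells, lymphocytes, adipocytes and striated muscle were also measured, with 0 genes called in any comparison, as were mesothelial markers (0 called, group ranges of mean log2 level from -1.82 to 1.10 on WT arrays and from 1.47 to 3.06 on arrays labelled smSocs3-KO) and neutrophil markers. The mean log2 level of 3 adipocyte markers was -0.02, 2.61 and 2.58 on smSocs3-KO replicates 2, 3 and 5 at day 3. On all other arrays it was between -0.36 and 1.71. The part of the adipocyte markers in the results of the 10 genes was not tested. Of 4 neutrophil markers, 1 was called higher in the smSocs3-KO response and 1 in the mean of both, where 1.71% and 13.6% of all genes were. Gene structures on mm9 were not used here.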

Additional observations from a re-analysis of the deposited data

Results flagged for a closer look

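The challenge response of Igfbp4 was flagged because its arrays moved in opposite directions in the 2 genotypes. All 3 WT arrays at day 3 (2.51, 2.81 and 2.91) lay below those before challenge (3.01 to 3.18), and all 3 arrays labelled smSocs3-KO at day 3 (3.74, 3.78 and 4.01) lay above those before challenge (2.84 to 3.15). The interaction was 1.23 ± 0.23 on the log2 scale, and its limma adjusted p of 0.324 did not pass the threshold, as for all of the 22761 genes (0 called, 1214 with an unadjusted p under 0.05). Of the 10 genes, 2 had an unadjusted p under 0.05 in the interaction. The smSocs3-KO day 3 arrays were all on slide 2 and the WT arrays all on slide 1, and with slide as a block the interaction of Igfbp4 was 1.15 (limma adjusted p = 0.346, and between 0.141 and 0.988 over all alternatives). For the interaction, this block equals leaving out smSocs3-KO replicate 1 before challenge.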

How the results depend on the processing

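No difference of the 10 genes that was called changed its direction under any of the alternatives, while the counts of called genes were small and moved easily. Of the 10 genes, 2 were called in the WT response. This was 0 without a filter on dim probes, 0 with only the groups compared in the fit, 0 with the replicate block, and between 0 and 4 when 1 array was left out. Over all genes, 10, 0 and 0 were called in the first 3 of these settings, so such a loss is not particular to the 10 genes. It was 3 under 6 other settings, with Igfbp2 as the further gene under 5 of them (normexp with the 75th percentile, the filter on all 12 arrays, trend and robust moderation, and slide as a block with or without smSocs3-KO replicate 5 at day 3) and Igfbp4 under normexp with quantile normalization. In the smSocs3-KO response 1 was called. This was 2 with normexp background correction and the 75th percentile, 2 with trend and robust moderation, 0 without the filter, 0 with slide as a block (with or without smSocs3-KO replicate 5 at day 3), 0 with the replicate block, and between 0 and 2 when 1 array was left out. Over all genes, 173 were called without the filter, 52 with slide as a block (26 without that array) and 2 with the replicate block. With only the groups compared, the 1 gene called there was Igf1 in place of Igfbp4 (limma adjusted p = 0.0201 and 0.0817). Between genotypes at day 3, 1 was called. This was 0 with only the groups compared, 0 with slide as a block (with or without that array), 0 with the replicate block, and between 0 and 2 when 1 array was left out. Over all genes, 63 were called with only the groups compared, 0 with slide as a block (1 without that array) and 2 with the replicate block. In the mean of both responses, 2 were called, 4 with slide as a block without smSocs3-KO replicate 5 at day 3, and between 2 and 4 when 1 array was left out. These last counts, and the 4 in the WT response without WT replicate 4 at day 3, can include Igf2, which was kept only through smSocs3-KO before challenge. No gene of the 10 was called before challenge or in the interaction under any alternative. Igf1 in the mean of both responses was called under all alternatives run. The count over all genes in the WT response, 1065, was 0 without WT replicate 1 before challenge and 3628 without WT replicate 4 at day 3, 10 without the filter and 2368 with slide as a block. The replicate numbers of the labels were not found to pair the arrays (r of deviations from -0.403 to 0.464 over 11 pairs of arrays with the same number, highest with 0.464 and 0.332 between WT and smSocs3-KO before challenge, and -0.16, -0.403 and 0.16 between the only groups that share 3 numbers), and with the replicate block 3 genes were called in the mean of both responses, Igf1, Igf2 and Igfbp2. Without the filter, the median of all genes in the smSocs3-KO response was -0.186. Signal over background limits Igf2 and Igfbp3.

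The sign turned under some alternative only for differences that were not called, and none of the turned values was called (limma adjusted p of 0.451 or more). The cause was not tested. With normexp background and the 75th percentile, Igf2 was -0.15 between genotypes at day 3 (0.47 as reported) and -0.19 in the interaction (0.34), and Igf1r was 0.02 in the interaction (-0.01). With normexp background and quantile normalization, the Igf2 interaction was -0.01, the Igf1r interaction 0.02, and the smSocs3-KO response -0.02 for Igfbp2 (0.05) and -0.05 for Igfbp6 (0.03). Quantile normalization and the authors' processed values each gave 0.05 for the Igf1r interaction, -0.06 for Igfbp2 and -0.07 for Igfbp6. With slide as a block, the smSocs3-KO response was -0.04 for Igfbp2 and -0.26 for Igfbp3 (0.19), Igfbp3 differed by -0.39 before challenge (0.51) and Igfbp5 by 0.09 at day 3 (-0.27). With that block and without smSocs3-KO replicate 5 at day 3, the last 3 were -0.71, -0.39 and 0.08, and the interaction was -0.17 for Igf2 and 0.16 for Igfbp7 (-0.25). With the replicate block, Igf2 was -0.09 before challenge (0.13), Igf1r was 0.04 in the smSocs3-KO response (-0.15), 0.07 at day 3 (-0.12) and 0.35 in the interaction, and Igfbp7 was 0.41 in the interaction. With 1 array left out, the difference before challenge ranged from -0.04 to 0.32 for Igf1, from -0.04 to 0.34 for Igf2, from -0.02 to 0.96 for Igfbp3 and from -0.24 to 0.12 for Igfbp6. That at day 3 ranged from -0.08 to 0.93 for Igf2 and from -0.25 to 0.12 for Igf1r. The smSocs3-KO response ranged from -0.77 to 1.01 for Igfbp2, from -0.27 to 0.92 for Igfbp3, from -0.13 to 0.23 for Igfbp6 and from -0.14 to 0.53 for Igfbp7, and the interaction from -0.21 to 0.81 for Igf2, from -0.14 to 0.23 for Igf1r and from -0.53 to 0.15 for Igfbp7.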
